A study of Mus musculus with 4 samples.

Results

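Endothelial cells of the limb bone marrow were compared between control and mutant mice. In these cells Flt1 and Aplnr transcripts were at least as many as those of 3 sinusoidal genes. The label of mutant 1 names the Prx1-cre recombinase and a floxed Mettl3 gene, and that of mutant 2 says only mutant. A barcode was a member if it held at least 3 of the 5 endothelial genes Cdh5, Pecam1, Egfl7, Emcn and Kdr, was not scored as arterial, and had at least 2 UMIs of Flt1 and Aplnr together. Members were thus chosen by measured UMIs of these genes. The Flt1 and Aplnr sum also had to equal or exceed the summed UMIs of the sinusoidal genes Stab2, Clca3a1 and Adamts5. A UMI (unique molecular identifier) stands for 1 captured RNA molecule. The rule selected 960 cells of 16658 kept in all and of 1697 endothelial cells. Control 1 gave 11 of them, control 2 gave 99, mutant 1 gave 35 and mutant 2 gave 815, so that mutant 2 supplied most members and control 1 very few.

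All libraries came from C57BL/6 mice at postnatal day 12. Sorting took live (calcein-positive, DAPI-negative) marrow cells that lacked the hematopoietic surface proteins CD45 and Ter119, with 3 mice of each genotype as the source, and the cells were profiled by droplet 3′ single-cell RNA sequencing. The labels name no alleles for the control mice. Mutant 1 is labelled Prx1-cre;Mettl3-fl/fl and mutant 2 only as mutant. Prx1-cre is a recombinase driven by a limb mesenchyme promoter, so the deletion is directed at mesenchyme and not at endothelium. The labels do not say how the mice were divided among the 2 libraries of each genotype, so p-values measure only the spread between these libraries, which may be partly technical. Control 1 and mutant 1 share 1 Cell Ranger version in the submitters' processing notes and control 2 and mutant 2 another, called batch 1 and batch 2 here.

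Flt1 encodes VEGF receptor 1, which binds VEGF-A and limits its access to the signalling receptor Kdr, and Aplnr encodes the receptor for the peptide apelin. Marrow blood enters through arteries and capillaries and leaves through wide, leaky sinusoids, whose endothelium carries scavenger receptors such as Stab1 and Stab2. Capillary endothelium elsewhere is known for Plvap, which forms the diaphragms of fenestrae and caveolae, and for Gpihbp1, which carries lipoprotein lipase to the capillary lumen.

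The label was checked against its 4 marker genes. Levels are given as CPM, the UMIs of a gene per 1000000 UMIs summed over the cells of a class. Values of 4 libraries are always listed as control 1, control 2, mutant 1, mutant 2. Flt1 was at 935, 955, 849 and 1072 CPM and Aplnr at 860, 844, 558 and 1217 CPM. Both chose the members, so these values only describe them. Plvap was at 1116, 1007, 1564 and 1487 CPM and Gpihbp1 at 1237, 927, 2081 and 1017 CPM. In erythroid cells of the same libraries, which should lack all 4 genes, none exceeded 5.69 CPM. Plvap and Gpihbp1 were also abundant in sinusoid-scored cells, at 748 to 1619 and 616 to 1679 CPM, and therefore mark marrow endothelium more than this group alone.

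Both Flt1 and Aplnr were detected in 10, 92, 29 and 787 members, Flt1 alone in 0, 3, 4 and 11, and Aplnr alone in 1, 4, 2 and 17. The median sum of the pair was 9, 18, 9 and 25 UMIs per cell. At the edge of the rule, 1, 5, 2 and 16 members held exactly 2 such UMIs, and 1, 8, 0 and 9 were tied with their sinusoidal score. Just outside, 1, 0, 2 and 30 endothelial cells held 1 such UMI, and 0, 10, 0 and 6 missed by 1 UMI of the sinusoidal score. Members without any sinusoidal UMI numbered 7, 22, 28 and 239.

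The libraries differ in ways that touch these cells. The files held between 47390414 and 116863081 UMIs per library, and the members' sums held 66301, 1070649, 267224 and 9369534 UMIs, so that a single UMI is worth 15.1 CPM in control 1 but 0.107 CPM in mutant 2. Members had a median of 5089, 9662, 6425 and 10453 UMIs. RNA of other cell types was present in them and differed between libraries. The 13 mesenchymal markers summed to 407, 84.1, 722 and 6454 CPM in members, with 7, 3, 2 and 0 of the 13 at 0. The 14 erythroid markers summed to 14585, 4974, 37.4 and 5458 CPM, with 3, 0, 9 and 0 at 0. The 11 neutrophil markers summed to 0, 23.4, 37.4 and 10838 CPM, with 11, 8, 9 and 0 at 0. Summed macrophage markers reached at most 5.02 CPM. Free RNA was read from barcodes of 10 to 100 UMIs, which the mutant 1 file does not hold. In it the mesenchymal markers summed to 12102, 1985 and 36953 CPM and the neutrophil markers to 432, 1338 and 13910 CPM in control 1, control 2 and mutant 2. The part of this RNA in the genotype results was not tested beyond the values given beside them. No member barcode was shared between libraries.

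The first comparison asked how much of the endothelium fell into this group. Flt1/Aplnr cells made up 33.3% of endothelial cells in control 1 (11 of 33) and 17.3% in control 2 (99 of 572), against 72.9% in mutant 1 (35 of 48) and 78.1% in mutant 2 (815 of 1044). Both mutant libraries lay above both controls, and the 95% intervals (exact Clopper-Pearson, for counting error alone) were 18.0 to 51.8%, 14.3 to 20.7%, 58.2 to 84.7% and 75.4 to 80.5%. The mutant mean exceeded the control mean by 50.2 percentage points, by 39.6 points within batch 1 and 60.8 within batch 2. The exact two-sided permutation p was 0.33, the smallest that 6 splits of 4 libraries allow, so no significance can be reached. The share is set by the UMIs of the genes in the rule. Flt1, Aplnr and the sinusoidal and arterial genes decide the group, and the 5 endothelial genes decide which cells are counted. With the rule applied to cells thinned to 2000 UMIs, so that depth was equal, the shares were 33.3, 19.8, 65.0 and 76.3%. Counted only against sinusoid-scored cells, they were 36.7, 17.5, 87.5 and 84.4%. Sinusoid-scored cells themselves numbered 19, 468, 5 and 151.

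**Figure D1:**
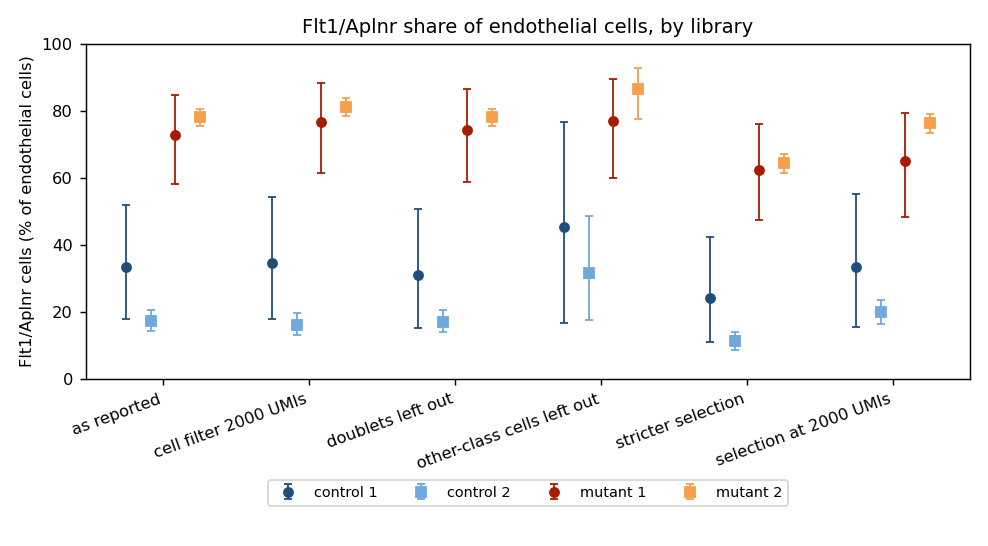
Flt1/Aplnr cells as a percentage of all endothelial cells (vertical axis) for the 4 libraries, as reported and under 5 alternative cell filters or selection rules (horizontal axis); points are libraries and bars are exact 95% intervals. Both mutant libraries stand above both control libraries in every setting drawn, and the control 1 interval is wide because it rests on 33 endothelial cells.

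A set of genes outside the rule separated Flt1/Aplnr cells from sinusoid-scored cells in every library. This contrast is what the rule selects on, so it is described without a test, on the log2(CPM + 10) scale. Of 6041 genes with at least 50 CPM in a summed class, 771 were higher in Flt1/Aplnr cells in all 4 libraries (12.8%) and 703 were lower (11.6%). Several of the genes that stood highest are known from capillary or continuous endothelium. Cav1, the main coat protein of caveolae, was at 392, 92.5, 247 and 76.5 CPM in Flt1/Aplnr cells and at 0, 6.59, 0 and 7.48 CPM in sinusoid-scored cells. Cd34, a sialomucin of capillary and stem cell surfaces, was at 649, 524, 879 and 498 CPM against 11.5, 24.5, 89.9 and 82.9 CPM. Ednrb, an endothelin receptor, was at 407, 251, 498 and 136 CPM against 0, 5.65, 89.9 and 17.3 CPM. These groups did not overlap for Cav1, Cd34 or Ednrb, although the mutant 1 sinusoid sum holds only 5 cells and 1 UMI in it is worth 30.0 CPM. The other genes of this set were Ptn (a heparin-binding growth factor), S100a6 (a calcium-binding protein), Col15a1 and Vwa1 (basement membrane proteins), Ltbp4 (a binder of latent TGF-beta), Ramp3 (an adrenomedullin receptor subunit), Kcne3 (a potassium channel subunit), Efnb2 (an arterial ephrin) and Cdh13 (T-cadherin), with mean differences of 2.98 to 4.60. In mutant 2, S100a6 was at 319 CPM in Flt1/Aplnr cells and at 332 CPM in free RNA.

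Genes that stood lower included lipases and adhesion or uptake receptors. Lpl, which encodes lipoprotein lipase, was at 60.3, 57.0, 3.74 and 37.4 CPM against 806, 276, 120 and 151 CPM in sinusoid-scored cells. Free RNA held 681, 15.7 and 6.78 CPM of Lpl in control 1, control 2 and mutant 2, and mesenchymal cells 3231, 1336, 21.6 and 24.7 CPM. Vcam1, an adhesion receptor for blood cells, was at 211, 106, 11.2 and 87.3 CPM against 702, 457, 570 and 280 CPM. Mrc1, the mannose receptor, was at 136, 285, 48.6 and 302 CPM against 742, 907, 1109 and 714 CPM. For each of the 3 genes every Flt1/Aplnr value lay below its own library's sinusoid value. The remaining genes were Tspan7 (a tetraspanin), Rgs4 (a regulator of G protein signalling), Khdrbs3 (an RNA-binding protein), Ston2 (an endocytic adaptor), Lipg (endothelial lipase), Sema3a (a secreted guidance factor), Hivep3 (a zinc finger factor), Ugcg (glucosylceramide synthase) and Slc16a9 (a carboxylate transporter family member), with mean differences from -2.67 to -2.17.

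**Figure D2:**
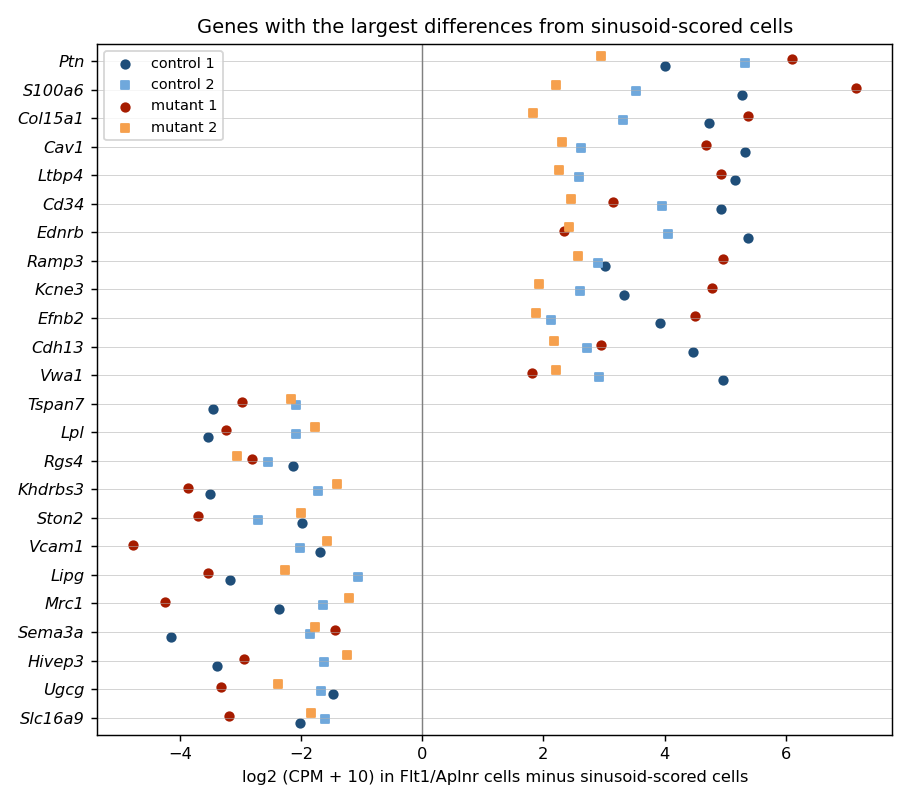
Difference between Flt1/Aplnr cells and sinusoid-scored cells of the same library on the log2(CPM + 10) scale (horizontal axis) for the 12 genes outside the rule that were highest and the 12 that were lowest (vertical axis); each point is a library. All 4 libraries lie on the same side of 0 for each of these genes, which is how they were chosen.

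Gene lists are given as counts of genes on 1 side in all 4 libraries. Over all 6041 genes 12.8% were higher and 11.6% lower. Of 21 capillary and tip genes with at least 50 CPM, 12 were higher in all 4 libraries and 0 lower, Apln, Rgcc, Plxnd1 and Mcam among them. Of 15 further sinusoidal genes, 12 were lower, including Stab1 at 392, 480, 187 and 489 CPM against 639, 797, 959 and 776 CPM, and only Ltbp4 was higher. Of 20 basement membrane genes 12 were higher, among them the laminin chains Lama4, Lama5, Lamb1 and Lamc1, and 1 was lower, the protease gene Adamts1. Of 8 genes of caveolae and their diaphragms 4 were higher, namely Cav1, Cav2, Cavin1 and Cavin3. Of 13 further arterial genes 4 were higher, including Efnb2 and Ly6a. Of 10 fatty acid uptake genes 6 were lower (Lpl, Cd36, Fabp4, Pparg, Angptl4 and Lipg) and 2 higher (Gpihbp1 and Cav1). The median difference was 1.06 for the capillary list and -1.36 for the sinusoidal list, beside -0.01 over all 6041 genes.

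The second comparison asked which genes differed between genotypes inside the selected cells. UMIs were summed per library and tested with edgeR's quasi-likelihood test with batch as a term. Of 8099 genes, 7 passed a Benjamini-Hochberg adjusted p of 0.05 (0.0864%), 6 higher in mutants (0.0741%) and 1 lower (0.0123%). Both mutant libraries lay above both controls for 15.7% of the tested genes and below them for 15.1%. At an unadjusted p under 0.05 there were 141 higher and 145 lower genes, in all 3.53% of those tested. Without a batch term 1 gene was higher and 1 lower. A fit on 3 libraries cannot keep the batch term and assumes that the lone library of a genotype varies like the other pair, so its count reflects the changed model as well as the library left out. Such fits gave 0 genes without control 1 and 0 without control 2, with 251 and 353 genes respectively at an unadjusted p under 0.05, 66 higher and 22 lower genes without mutant 1, and 52 and 59 without mutant 2. With a mean count of at least 20 in place of edgeR's filter, 90 were higher and 39 lower.

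The targeted gene came first. Mettl3, which encodes the catalytic subunit of the m6A writer, was at 30.2, 14.9, 18.7 and 18.9 CPM in Flt1/Aplnr cells, from 2, 16, 5 and 177 UMIs, and the groups overlapped (log2 difference 0.21, SE 0.48). In mesenchymal cells, where the recombinase is active, it was at 11.2, 12.1, 3.92 and 6.36 CPM. The labels do not name the deleted exon, and 3′ reads outside it would still be counted. Of 17 tested genes of the m6A machinery, 0 passed the edgeR test and 1 had an unadjusted p under 0.05, against 3.53% of all tested genes. Both mutants lay above both controls for 4 of the 17 and below them for 4, against 15.7% and 15.1% of all tested genes.

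The gene that was lower was Ubd (chr17:37193892-37196095 on mm10, plus strand), which encodes the ubiquitin-like modifier FAT10, a protein induced by inflammatory cytokines. It was at 30.2 and 69.1 CPM in the control libraries, and at 0 and 2.24 CPM in the mutants. Its groups did not overlap, and the values rest on 2, 74, 0 and 21 UMIs. The 0 of mutant 1 allows up to 11.2 CPM. The log2 difference was -4.95 (SE 0.51, edgeR adjusted p = 0.0272). Sinusoid-scored cells held more of it, 276, 293, 0 and 48.3 CPM, and free RNA held 2.70, 13.8 and 0.936 CPM in control 1, control 2 and mutant 2. The difference between genotypes was not shown to differ between the classes (log2 difference of differences -2.10, SE 0.70, adjusted p = 0.962). Ubd missed the threshold without control 1 and the batch term (edgeR adjusted p = 0.152). It also missed it when only the 5811 genes with a higher mean level in members than in free RNA were adjusted together (edgeR adjusted p = 0.117), where 0 genes passed and 168 had an unadjusted p under 0.05. Its level was too low to be tested without control 2, under the stricter selection or with cells of other classes left out. Over the 12 alternatives that gave a value the log2 difference ranged from -7.81 to -4.71.

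The 250 bases before the Ubd start, from the RefSeq promoter table of build GRCm38.p6 (chr17:37193642-37193891, plus strand), are shown because Ubd was the one gene that fell. Capitals mark the match to GGGNNTTTCC, a form of the NF-kB binding motif, searched on both strands after the sequence had been seen.

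Ubd: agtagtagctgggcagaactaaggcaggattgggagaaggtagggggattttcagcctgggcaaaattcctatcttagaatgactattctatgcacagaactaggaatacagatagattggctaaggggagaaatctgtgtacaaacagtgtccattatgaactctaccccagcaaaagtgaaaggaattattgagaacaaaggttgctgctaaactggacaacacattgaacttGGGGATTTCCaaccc

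That motif was found in 1.41% of 32851 promoter windows of this length. An interferon-type motif, TTTCNNTTTC on either strand, had no match in the Ubd window and was found in 2.98% of all windows.

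The 6 genes that were higher are known from bone-forming mesenchyme or neutrophils. Spp1 (osteopontin, a mineral-binding glycoprotein; chr5:104435118-104441050 on mm10) was at 15.1, 26.2, 2601 and 869 CPM (log2 difference 5.49, SE 0.40, edgeR adjusted p = 0.00644). Ibsp (bone sialoprotein; chr5:104299171-104311469) was at 15.1, 4.67, 67.4 and 753 CPM (7.01, SE 0.56, adjusted p = 0.00936). Tnc (tenascin C, a matrix glycoprotein; chr4:63959785-64047015) was at 0, 3.74, 483 and 115 CPM (5.31, SE 0.46, adjusted p = 0.0124). For all 3 both mutants lay above both controls. Col11a1 (a cartilage collagen chain) was at 0, 2.80, 15.0 and 116 CPM, and Bglap (osteocalcin) at 15.1, 8.41, 11.2 and 528 CPM. The Bglap groups overlapped, because mutant 1 lay between the controls, and reads of Bglap can be shared with its near copy Bglap2. S100a8 (a neutrophil calcium-binding protein) was at 0, 6.54, 26.2 and 3912 CPM. Their log2 differences were 5.38, 5.76 and 9.23. With DESeq2, Spp1 and Tnc of the 6 passed, whereas Col11a1 (adjusted p = 0.111), S100a8 (0.826), Ibsp (1.0) and Bglap (1.0) did not.

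Each of these 6 genes was also high outside the endothelium. Spp1 reached 7584, 12402, 39596 and 19248 CPM in mesenchymal cells, and 2539, 284 and 14282 CPM in the free RNA of control 1, control 2 and mutant 2. Ibsp reached 4042 CPM, Tnc 612, Bglap 5620, Col11a1 620 and S100a8 4914 CPM in the free RNA of mutant 2, each above its level in the Flt1/Aplnr cells of that library. None of the 6 was among the genes with a higher mean level in members than in free RNA. Among members, 18.2, 2.02, 22.9 and 67.7% of cells held at least 3 mesenchymal markers, and 24.3% of mutant 2 cells and 0 elsewhere held at least 3 neutrophil markers. At least 3 erythroid markers were held by 54.5, 86.9, 0 and 67.9% of members. Leaving out cells with 3 or more markers of any other class kept only 5, 12, 27 and 77 members. In these few cells the log2 difference of Spp1 was 1.60 and no longer passed (edgeR adjusted p = 0.346). Without a batch term, only Spp1 and Ubd of the 7 passed.

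**Figure D3:**
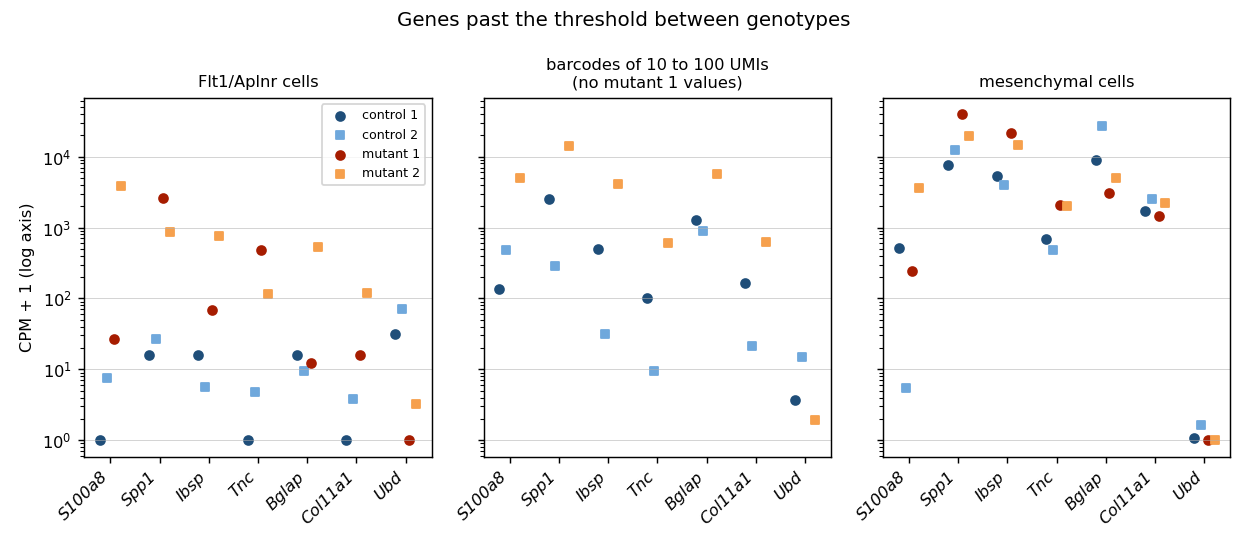
CPM + 1 on a log axis (vertical) for the 7 genes past the threshold (horizontal), in Flt1/Aplnr cells, in barcodes of 10 to 100 UMIs and in mesenchymal cells; each point is a library. Spp1, Ibsp, Tnc, Col11a1, Bglap and S100a8 are high in mesenchymal cells or in the free RNA of mutant 2, while Ubd is near the bottom of both of those panels.

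The genes next to the threshold did not pass. Igfbp5, a binding protein of insulin-like growth factors, was at 407, 368, 1093 and 913 CPM (log2 difference 1.40, SE 0.21, adjusted p = 0.105). Both mutant values exceeded both controls, and mesenchymal Igfbp5 ran the other way at 5211, 3116, 32.2 and 69.2 CPM. Timp2, an inhibitor of matrix metalloproteinases, was at 121, 94.3, 329 and 279 CPM (1.56, SE 0.22, adjusted p = 0.103). Fbln2, a basement membrane fibulin, was at 256, 121, 554 and 348 CPM (1.41, SE 0.22, adjusted p = 0.117), with at most 10.8 CPM in mesenchymal cells and 17.1 CPM in free RNA. Hspa1a, a heat-shock chaperone with a near-identical copy, was at 0, 3.74, 22.5 and 93.3 CPM (4.66, SE 0.58, adjusted p = 0.0634) beside 356 CPM in the free RNA of mutant 2. On the lower side, Bend4 (-2.85) and the heme pathway gene Blvrb (-1.52) had an adjusted p of 0.105. Free RNA held 1283, 1818 and 492 CPM of Blvrb.

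Fatty acid uptake genes were lower in the mutant libraries as values, without a call. Fabp4, a fatty acid binding protein that carries lipids inside capillary endothelium (chr3:10204088-10208576 on mm10), was at 6124, 6591, 2373 and 2967 CPM in Flt1/Aplnr cells. Both mutant values lay below both controls (log2 difference -1.21, SE 0.17, edgeR adjusted p = 0.105). In sinusoid-scored cells it was at 14004, 12572, 8363 and 7345 CPM, also with both mutants below both controls, and the difference of differences was -0.20 (SE 0.73, adjusted p = 1.0). Free RNA held at most 611 CPM of Fabp4. Fabp4 passed with DESeq2 (adjusted p = 0.00167), with doublets left out and under 4 other alternatives, and over all alternatives its log2 difference ranged from -1.40 to -0.42. The value nearest 0 came from leaving out cells with markers of other classes, which kept only 5, 12, 27 and 77 members. Under the stricter selection the log2 difference was -0.85.

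Fabp5, a related binding protein, was at 498, 271, 221 and 89.9 CPM (-1.41, SE 0.21, edgeR adjusted p = 0.105), and erythroid cells held 206 to 327 CPM of it. Free RNA held 243, 336 and 291 CPM of Fabp5 in control 1, control 2 and mutant 2. In control 2 and mutant 2 this was above the level in Flt1/Aplnr cells. Cd36, the fatty acid translocase, was at 241, 290, 150 and 116 CPM (-1.11, SE 0.24, edgeR adjusted p = 0.316). In sinusoid-scored cells its groups overlapped, at 339, 362, 689 and 303 CPM, where mutant 1 rests on 5 cells. Angptl4, a secreted inhibitor of lipoprotein lipase, was at 196, 132, 48.6 and 62.9 CPM (-1.26, SE 0.30, adjusted p = 0.432). In Flt1/Aplnr cells Fabp4, Fabp5, Cd36 and Angptl4 all had both mutants below both controls. Of 10 tested list genes, 0 passed the edgeR test and 4 had an unadjusted p under 0.05, against 3.53% of all tested genes. For 7 of the 10 both mutants lay below both controls, against 15.1% of all tested genes. The list's median log2 difference was -0.89, beside 0.02 for all genes. Gpihbp1, which is also on the list, had overlapping groups (0.47, SE 0.23).

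**Figure D4:**
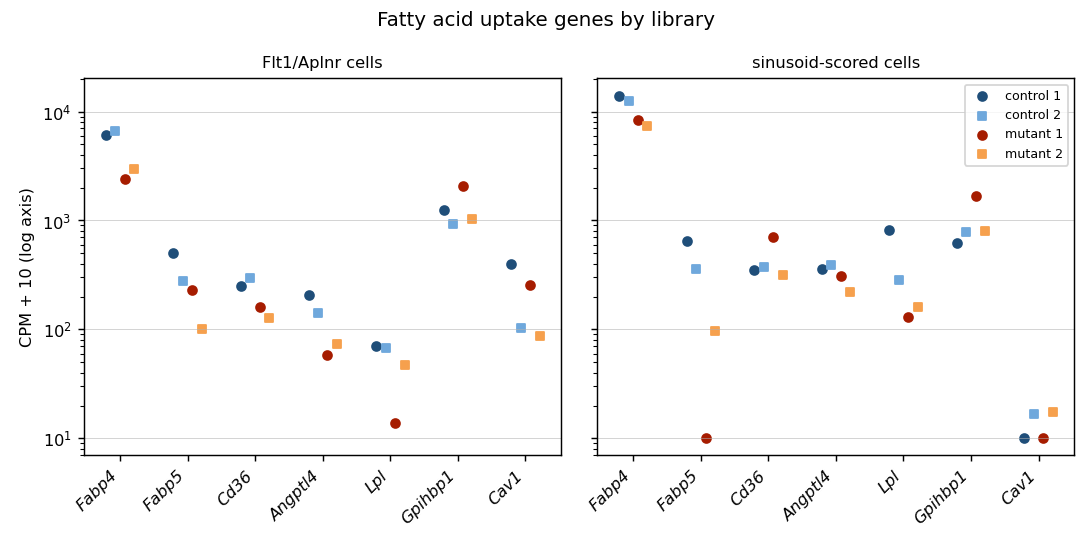
CPM + 10 on a log axis (vertical) of 7 fatty acid uptake genes (horizontal) in Flt1/Aplnr cells and in sinusoid-scored cells; each point is a library. Fabp4 and Angptl4 are lower in both mutant libraries than in both controls in each class, whereas Gpihbp1 and Cav1 overlap in Flt1/Aplnr cells.

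The other lists that describe endothelial identity held no call. Of 19 tested capillary and tip genes, 0 passed and 5 had an unadjusted p under 0.05, against 3.53% of all tested genes. The median was 0.08. Plvap (0.57, SE 0.19, edgeR adjusted p = 0.900) and Apln (75.4, 72.9, 165 and 124 CPM) had both mutants above both controls. The same order was seen in sinusoid-scored cells, where the mutant 1 sum holds only 5 cells. There Plvap was at 748, 855, 1619 and 1197 CPM and Apln at 0, 17.6, 120 and 51.2 CPM. Of 16 further sinusoidal genes, 0 passed and 4 had an unadjusted p under 0.05, against 3.53% of all tested genes. Both mutants lay below both controls for 5, against 15.1% of all tested genes, and the median was -0.19. Among the 5 was the cytokine co-receptor Il6st at 332, 348, 146 and 222 CPM. Kcnj8 and Abcc9, subunits of an ATP-sensitive potassium channel that were listed as pericyte markers, were at 181, 199, 59.9 and 89.9 CPM and at 347, 460, 150 and 270 CPM. Both were higher in sinusoid-scored cells of every library, and neither passed (adjusted p = 0.278 and 0.432). For 20 basement membrane genes, 19 junction and adhesion genes, 14 Notch genes and 18 endothelial transcription factors, 0 passed and 2, 0, 0 and 2 had an unadjusted p under 0.05.

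Response and growth genes held no call either. Klf2, a flow-induced transcription factor, was at 151, 413, 479 and 447 CPM (log2 difference 0.64, SE 0.34). Both mutants lay above both controls, but control 2 was close to them and control 1 far below. Klf2 was at 89.1, 243, 289 and 279 CPM in mesenchymal cells and, with overlapping groups, at 138, 414, 360 and 542 CPM in sinusoid-scored cells. Free RNA held 21.9, 23.1 and 236 CPM of Klf2 in control 1, control 2 and mutant 2. Of 19 immediate early genes, 0 passed and 7 had an unadjusted p under 0.05, against 3.53% of all tested genes. Both mutants lay above both controls for 7 of the 19 and below them for 2, against 15.7% and 15.1% of all tested genes. The median was 0.70, beside 0.02 for all genes. Dusp1, a phosphatase of MAP kinases, was at 15.1, 143, 228 and 271 CPM, with control 1 far below the rest. Of 23 proliferation genes, 0 passed and 0 had an unadjusted p under 0.05, 8 had both mutants below, against 15.1% of all tested genes, and the median was -0.48; Mki67 was at 226, 197, 26.2 and 150 CPM beside 591 and 498 CPM in the free RNA of control 1 and control 2. Of 18 interferon-stimulated genes, 12 class I antigen presentation genes and 14 heat-shock genes, 0 passed and 1, 1 and 2 had an unadjusted p under 0.05. Of 12 niche factor genes 0 passed and 3 had an unadjusted p under 0.05, against 3.53% of all tested genes. The chemokine gene Cxcl12 was at 166, 50.4, 52.4 and 8.75 CPM in Flt1/Aplnr cells, its groups overlapped, and the free RNA of control 1 held 1549 CPM.

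The third comparison asked what share of members held a gene at equal depth, with each cell cut at random to 1000 UMIs. Of 34 genes and gene sets, 11 (32.4%) had groups that did not overlap, and the exact permutation p was 0.33 for each, the smallest possible. By CPM, 30.8% of all tested genes had groups apart in 1 direction or the other, so the share of 11 in 34 is near the background and is no result about these genes. The values that follow are descriptions. Plvap was found in 45.5, 58.6, 74.3 and 75.0% of cells, with 0.378 to 1.15% in erythroid cells. Cd36 was found in 18.2, 26.3, 2.86 and 8.71%, with 1.86 to 4.71% in erythroid cells, so the mutant 1 share, 1 of 35 cells, is within that background. At least 3 fatty acid uptake genes were held by 54.5, 43.4, 22.9 and 21.8% of cells, against at most 0.262% of erythroid cells. Without thinning the shares for this list were 90.9, 91.9, 82.9 and 88.7%. At 2000 UMIs they were 60.0, 57.7, 57.1 and 48.1%, a difference of 6.23 points where 1000 UMIs gave 26.6. Fabp4 was found in 72.7, 75.8, 54.3 and 71.4% of cells. Its groups overlapped with doublets left out, under the stricter selection, at 2000 UMIs (70.0, 79.4, 65.7 and 81.9%) and without thinning. The Gpihbp1 shares overlapped between genotypes. At least 3 proliferation genes were held by 9.09, 10.1 and 10.6% in control 1, control 2 and mutant 2 and by 0 of 35 cells in mutant 1, which allows up to 8.57%.

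**Figure D5:**
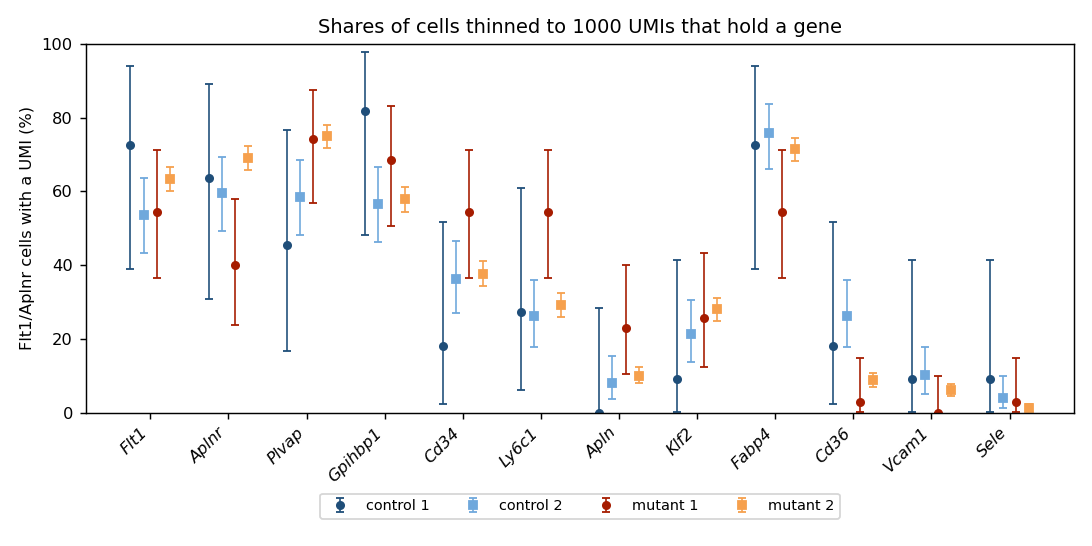
Percentage of Flt1/Aplnr cells with a UMI of each gene after thinning to 1000 UMIs per cell (vertical axis) for 12 genes (horizontal axis); points are libraries and bars are exact 95% intervals. Plvap is higher and Cd36 lower in both mutant libraries than in both controls, and the control 1 intervals, from 11 cells, are the widest.

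The fourth comparison asked whether a genotype difference in Flt1/Aplnr cells differed from that in sinusoid-scored cells. Of 9051 genes, 2 passed in edgeR's test of the difference (0.0221%). For both, the mutant minus control difference was lower in Flt1/Aplnr cells than in sinusoid-scored cells, which does not mean a lower level. In the other direction 0 passed, and 46 had an unadjusted p under 0.05. Both calls rest on sinusoid sums near 0 in 1 or more libraries and are given among the flagged results. DESeq2 made 0 calls in either direction, with 35 genes at an unadjusted p under 0.05. Cthrc1, a secreted matrix protein gene, had a difference of -4.40 (SE 1.04, adjusted p = 0.0726), and Hp, which encodes haptoglobin, one of 4.08 (SE 0.99, adjusted p = 0.0887). Ednrb, at 407, 251, 498 and 136 CPM in Flt1/Aplnr cells, had a difference of -2.73 (SE 0.68, adjusted p = 0.108). None of the 3 passed edgeR's test.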

How the data were processed

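Droplet 3′ single-cell libraries of 2 control and 2 mutant samples were analysed from the deposited matrices, whose deposited values are raw UMI counts (whole numbers, not normalized), per the file headers. Reads were processed with Cell Ranger 5.0.1 (control 1, mutant 1) or 6.1.2 (control 2, mutant 2) and mm10, per the submitters' processing notes; the matrix headers name other versions for some libraries, and no source used here names the gene annotation. Replicate numbers only name libraries. The deposited counts of mutant 1 cover only 3352 called barcodes.

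Barcodes with at least 1000 UMIs, 500 genes and at most 10% mitochondrial UMIs were kept (5808, 3635, 2628 and 4587). Arterial cells held at least 3 UMIs over 2 or more of Gja4, Gja5, Sema3g and Bmx. Sinusoid-scored cells were the other endothelial cells outside the rule with at least 2 UMIs of its sinusoidal genes. No doublets were removed; Scrublet in scanpy 1.11.5 marked 2, 4, 3 and 57 members, left out as an alternative. UMIs were summed per library and class and tested with edgeR 4.0.16 under R 4.3.3 by the quasi-likelihood test after TMM scaling and filterByExpr. The genotype design had a batch term and 1 residual degree of freedom; the difference between classes was an interaction with library and class as terms and 2 residual degrees of freedom. DESeq2 1.42.0 was an alternative. SE is the log2 difference divided by the square root of F. The scripts were tested on simulated data. Positions come from GENCODE M21 (32158 of 32285 identifiers matched). The members, lists and tests were chosen with earlier results of these data known, so the counts of lists are not independent evidence. Genes named between genotypes are those past the threshold, the 5 with the smallest p where fewer passed in a direction, and up to 4 per list; genes named against sinusoid-scored cells are the 12 with the largest mean difference in each direction.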

Additional observations from a re-analysis of the deposited data

Results flagged for a closer look

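For 2 genes the difference between genotypes in Flt1/Aplnr cells differed from that in sinusoid-scored cells by edgeR's test of the difference itself. Col13a1, which encodes a transmembrane collagen, gave -5.65 on the log2 scale (SE 1.11, adjusted p = 0.00333). It was at 75.4, 31.8, 48.6 and 32.3 CPM in Flt1/Aplnr cells of control 1, control 2, mutant 1 and mutant 2, with overlapping groups, and at 0, 0.471, 0 and 28.2 CPM in sinusoid-scored cells. Mesenchymal cells held 65.5 to 160 CPM of Col13a1, and the free RNA of mutant 2 held 59.9 CPM. Mmp13, which encodes a collagenase of bone and cartilage, gave -3.23 (SE 0.72, adjusted p = 0.0350). It was at 0, 28, 400 and 62.3 CPM in Flt1/Aplnr cells and at 63.3, 0.235, 30.0 and 220 CPM in sinusoid-scored cells, beside 1139 to 2878 CPM in mesenchymal cells and 522 CPM in the free RNA of mutant 2. Without mutant 2 both differences changed sign, to 2.70 for Col13a1 and 1.39 for Mmp13, and neither passed. The part of free mesenchymal RNA in these values was not tested.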

How the results depend on the processing

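The genotype comparison in Flt1/Aplnr cells called 6 genes higher and 1 lower. With no filter on low counts it called 90 and 35, with a mean count of 20 it called 90 and 39, without a batch term 1 and 1, and with doublets left out 13 and 9. Selection at 2000 UMIs gave 26 and 46, and genes above free RNA, an alternative chosen after seeing the data, gave 0 and 0. The lower count was 3 with DESeq2, 2 with the stricter cell filter, 7 with cells of other classes left out and 0 under the stricter selection. Fits on 3 libraries gave 0 to 66 higher and 0 to 59 lower genes: 0 and 0 without control 1 or without control 2, 66 and 22 without mutant 1, and 52 and 59 without mutant 2. They also lack the batch term and leave 1 library in a genotype, so these counts cannot be put down to the library alone. RLE scaling gave 8 and 1. The difference between classes called 0 higher and 2 lower genes. The lower count was 0 with DESeq2, 1 with no filter, 0 with the stricter cell filter, 8 with doublets left out, 0 with cells of other classes left out, 4 under the stricter selection and 1 over genes above free RNA. Selection at 2000 UMIs gave 7 higher genes. Leaving out 1 library gave 0 to 3 higher and 0 to 5 lower genes. With 1 library left out, the Mmp13 difference ranged from -7.16 to 9.51 (positive without control 2, and 1.39 without mutant 2) and that of Col13a1 from -9.73 to 2.70 (positive without mutant 2). The share of endothelial cells kept its direction in every alternative, with 43.3 to 53.7 points, and 42.2 to 58.2 points when 1 library was left out. Of 34 matched-depth shares, 11 had groups apart, and 18 to 24 when 1 library was left out, since fewer libraries overlap less often. The cause of the other changes was not tested. The labels give no replicate numbers. The batch term joins 1 library of each genotype only by the Cell Ranger version in the processing notes. The genotype test compares within these pairs, but the labels do not show that paired libraries were prepared together. The fit without that term is given above. Precision is limited by the 11 control 1 cells and their 66301 UMIs, in which a gene at 0 may still be at 45.2 CPM.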

Other observations

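The Y-linked genes Kdm5d, Eif2s3y and Ddx3y were at 15.1, 21.5, 3.74 and 5.98 CPM, at 45.2, 29.9, 15.0 and 13.1 CPM and at 60.3, 68.2, 59.9 and 31.5 CPM in Flt1/Aplnr cells of control 1, control 2, mutant 1 and mutant 2, and Xist was at 588, 1122, 685 and 1324 CPM. All 4 libraries held both kinds of transcript, and none of these genes passed the genotype test. Of 5 tested sex-linked genes, 3 had both mutants below both controls and 1 above, against 15.1% and 15.7% of all tested genes. In edgeR's test 2 of the 5 had an unadjusted p under 0.05, against 3.53% of all tested genes. Their median log2 difference was -0.87, beside 0.02 for all genes. The mix of sexes in each library was not tested. The flow- and inflammation-linked adhesion gene Sele was at 90.5, 33.6, 7.48 and 21.7 CPM, with both mutants below both controls and an adjusted p of 1.0.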
